A study of Mus musculus with 20 samples.

Results

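The genes described here are the 2 enzymes that make GABA and the peptide and calcium-binding protein genes by which cortical GABA neurons are usually told apart. They are Gad1, Gad2, Sst, Cort, Npy, Vip, Cck, Crh, Calb1 and Calb2, chosen by name for these roles, and they are 10 of the 46078 genes in the count tables. All libraries came from wild-type male C57BL/6J mice aged 18 months. Each mouse had a DH stroke, which is a permanent block of the distal middle cerebral artery combined with hypoxia, and tissue was taken 7 weeks later. Mice received HPBCD (2-hydroxypropyl-beta-cyclodextrin, a ring of sugars that takes up lipids) at 4 g/kg under the skin, or PBS as vehicle, 3 times a week for 6 weeks, beginning 1 week after the stroke. From each animal both the tissue beside the infarct (peri-infarct) and the matching tissue of the other hemisphere (contralateral) were sequenced as bulk RNA, giving 4 groups of 5 libraries and 20 in all. Every animal had a stroke, so the reference for a regional difference is the uninjured side of a stroke brain and not an unoperated brain.

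GABA is the main inhibitory transmitter of the forebrain, and it is made from glutamate by the 2 glutamate decarboxylases, GAD67 from Gad1 and GAD65 from Gad2. GAD67 is spread through the whole neuron and makes most of its GABA, while GAD65 is concentrated at terminals. Cortical interneurons are sorted into classes by what they make besides GABA: one class makes somatostatin (Sst), often with cortistatin (Cort), neuropeptide Y (Npy) or calbindin (Calb1), and another makes vasoactive intestinal peptide (Vip), often with cholecystokinin (Cck), corticotropin-releasing hormone (Crh) or calretinin (Calb2). None of the markers belongs to 1 class alone, since Cck is also made by pyramidal neurons, Npy by several interneuron types, and Gad1, Gad2 and Calb1 by the projection neurons of the striatum, which are GABA neurons as well.

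Several of these peptide genes are textbook targets of CREB, the transcription factor that binds the cAMP response element (CRE, TGACGTCA) and its half-site (TGACG, which reads CGTCA on the other strand). The 100 bases before the start site are therefore shown for the 7 members with a promoter in the RefSeq table (build GRCm38.p6), each written 5′ to 3′ in the direction of the gene. Capitals mark a match to TGACGTCA, TGACG or the TATA box TATAAA on either strand.
Gad1 (chr2:70562029-70562128, plus strand): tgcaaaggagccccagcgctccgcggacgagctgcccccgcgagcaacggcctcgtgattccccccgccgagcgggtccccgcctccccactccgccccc
Gad2 (chr2:22622227-22622326, plus strand): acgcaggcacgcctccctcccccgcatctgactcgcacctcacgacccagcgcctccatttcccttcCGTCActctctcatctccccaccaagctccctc
Sst (chr16:23890845-23890944, minus strand): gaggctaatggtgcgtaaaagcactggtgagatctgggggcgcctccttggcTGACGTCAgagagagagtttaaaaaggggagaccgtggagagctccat
Cort (chr4:149126764-149126863, minus strand): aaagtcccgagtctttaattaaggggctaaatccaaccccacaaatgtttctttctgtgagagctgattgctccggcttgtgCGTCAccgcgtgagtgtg
Npy (chr6:49822610-49822709, plus strand): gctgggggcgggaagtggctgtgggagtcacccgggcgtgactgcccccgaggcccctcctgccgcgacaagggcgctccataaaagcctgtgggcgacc
Vip (chr10:5639118-5639217, plus strand): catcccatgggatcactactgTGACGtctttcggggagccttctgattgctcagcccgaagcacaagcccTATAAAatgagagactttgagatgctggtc
Cck (chr9:121495695-121495794, minus strand): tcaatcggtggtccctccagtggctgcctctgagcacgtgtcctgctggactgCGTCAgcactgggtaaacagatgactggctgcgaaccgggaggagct

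The full CRE lay in 1 of these 7 members, Sst, with its first base 48 bases before the start site. Over windows of 300 bases (250 before to 50 after the start), 1.79% of 32851 RefSeq promoters held it. The half-site, which the full CRE contains, lay in 5 of the 7 windows (Gad2, Sst, Cort, Vip and Cck), against 20.8% of all windows. TATAAA lay in the windows of Vip and of Gad1, where it was 141 bases before the start and on the reverse strand, against 13.6% of all windows. The RefSeq start of Gad1 is 9057 bases inside the gene model used for the counts, so its window belongs to a start within that model. A match of letters is a description of the sequence and no measurement of binding. Crh, Calb1 and Calb2 are named without a promoter.

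On build GRCm38, in the GENCODE M21 annotation, Gad1 (ENSMUSG00000070880) is at chr2:70553072-70602014 and Gad2 (ENSMUSG00000026787) at chr2:22622205-22693874, both on the plus strand. Sst (ENSMUSG00000004366) is at chr16:23889573-23890958 (minus), Cort (ENSMUSG00000028971) at chr4:149125034-149126763 (minus) and Npy (ENSMUSG00000029819) at chr6:49822710-49829507 (plus). Vip (ENSMUSG00000019772) is at chr10:5639218-5647617 (plus), Cck (ENSMUSG00000032532) at chr9:121489824-121495694 (minus) and Crh (ENSMUSG00000049796) at chr3:19693401-19695396 (minus). Calb1 (ENSMUSG00000028222) is at chr4:15881264-15908064 (plus) and Calb2 (ENSMUSG00000003657) at chr8:110137502-110168210 (minus). The counts cover the exons of each whole gene, and no member shares exon bases with another listed gene on either strand.

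The libraries held 14445021 to 22171627 counts in genes, so that the lowest level that 3 counts could show was 0.135 to 0.208 CPM (read counts scaled to library size). HPBCD contralateral replicate 4 had the fewest counts and stood apart, with 9.503% of its reads in no feature and 8.03% ambiguous, against at most 5.858% and 4.162% in the other libraries. Without it the same number of members, 7, was called between regions in HPBCD, and the Gad1 interaction described later was lost (-0.52, adjusted p = 0.0543). The treatment labels had no targeted gene to check them by, and they were checked instead with genes whose direction under HPBCD in aged peri-infarct tissue is described in the publication of this experiment. Of 33 such genes 32 were tested; 0 moved in the described direction, and 32 moved in the other one, 18 of them past the threshold by edgeR. Treatment groups are therefore called by their labels throughout ("labelled HPBCD", "labelled vehicle"), and every direction between treatments below rests on those labels. A regional difference within a group keeps its direction under either treatment name. The 6 microglial markers were all called higher in tissue labelled peri-infarct in both treatments. Libraries also differed in the other tissue they held. The summed level of 10 striatal genes was 2871, 197, 157, 249.7 and 182 CPM in the 5 vehicle contralateral libraries, so that replicate 1 stood apart. It was 298 to 1752 CPM in vehicle peri-infarct, 551 to 1530.4 CPM in HPBCD peri-infarct libraries and 182 to 238 CPM on the contralateral side in HPBCD. Cortical tissue was present throughout, with 8 markers of cortical glutamatergic neurons summing to 5502 to 7004, 6237 to 8061, 2738 to 5938 and 7815 to 8357 CPM in the groups in the order vehicle peri-infarct, vehicle contralateral, HPBCD peri-infarct and HPBCD contralateral.

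All 10 members passed the filter on low counts in every comparison. Divided by exon length, the levels in vehicle contralateral tissue ran from Sst at 431 ± 58.5 CPM per kb (SD, n = 5), through Cck at 283 ± 53.0 and Npy at 176 ± 45.5, down to Crh at 7.95 ± 2.05 and Calb2 at 4.86 ± 1.91. Gad1 was at 45.4 ± 3.40 CPM per kb there and Gad2 at 28.0 ± 7.43. Below them came Calb1 at 24.3 ± 6.48, Cort at 19.6 ± 5.43 and Vip at 17.6 ± 5.33 CPM per kb. The mean ± SD ranges of these last genes overlapped each other and that of Gad2. Peptide genes thus held both the highest and nearly the lowest levels. In peri-infarct tissue labelled HPBCD, Crh was the lowest member at 1.72 ± 0.598 CPM per kb, below Calb2 at 3.68 ± 1.52.

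**Figure D1:**
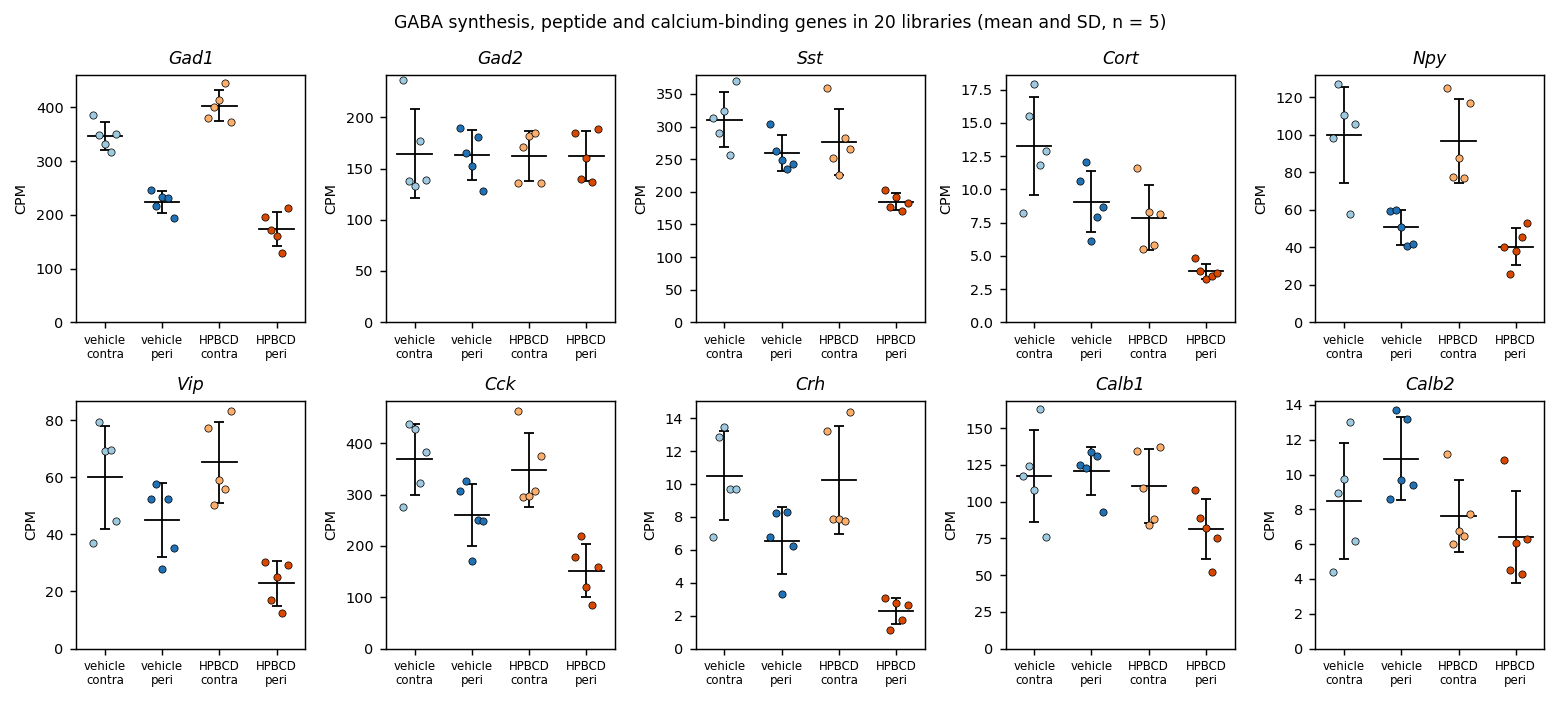
Level of each of the 10 members in every library, as CPM on a linear axis from 0, 1 panel per gene. Points are libraries, long lines are group means and error bars are 1 SD (n = 5 in each of the 4 groups). Gad1 separates the regions in both treatments, the 4 groups overlap for Gad2, and Crh in peri-infarct tissue labelled HPBCD lies at 1.15 to 3.05 CPM, below every other group.

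The first comparison asked how peri-infarct differed from contralateral tissue within the vehicle group. Gad1 and Npy were lower in peri-infarct tissue, by 1.54-fold and 1.96-fold, and the other 8 members did not pass the test. Markers of other cells moved in the same contrast, with 6 of 6 microglial, 4 of 6 astrocyte, 1 of 5 fibroblast and meningeal and 1 of 4 tested ependymal and choroid plexus markers called higher, and 4 of 12 pan-neuronal and 2 of 8 cortical glutamatergic ones lower; their part in the result was not tested. No member passed in the higher direction. Of 15801 genes tested, 9.7% were called lower and 10.5% higher by edgeR's quasi-likelihood test at an adjusted p under 0.05, against 2 of 10 members lower. The members' median log2 fold change was -0.45, against 0.01 over all tested genes. Without contralateral replicate 1, the library with the high striatal markers, 5 members were called lower: Gad1 (-0.56, adjusted p = 0.00377), Npy (-0.96, adjusted p = 0.0105), Cort, Cck and Crh, in a fit that called 8.1% of all genes lower. In bulk tissue fewer cells of a type and less RNA per cell cannot be told apart, here or in any result below.

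In mice labelled HPBCD the same comparison of regions called 7 of the 10 members lower in peri-infarct tissue, namely Gad1, Sst, Cort, Npy, Vip, Cck and Crh. Their differences ran from 1.45-fold for Sst to 4.35-fold for Crh. The regions did not overlap in any of the 7, but the share of all genes without overlap was not computed, so this describes the libraries only. All 10 striatal markers were called higher in the same contrast, and with their level as a covariate 0 members were called by edgeR. In that fit the log2 fold changes were -1.20 ± 0.47 (SE) for Gad1, -2.12 ± 0.72 for Npy, -1.42 ± 0.93 for Vip and -2.66 ± 1.19 for Crh (adjusted p from 0.194 for Npy to 0.560 for Vip), against -1.16, -1.21, -1.47 and -2.12 without the covariate. Sst was at -0.41 ± 0.44, Cort at -0.16 ± 0.79 and Cck at 0.54 ± 0.63 (adjusted p = 0.772), the only one of the 7 to change sign. The striatal level separates the regions completely here, and 302 of the 16047 genes were called in that fit. Without the covariate, 11 of 12 pan-neuronal genes were called lower, and 6 of 6 microglial, 6 of 6 oligodendrocyte, 5 of 5 fibroblast and meningeal, 4 of 6 astrocyte and 4 of 6 ependymal and choroid plexus markers higher; their part in the result was not tested. Gad2, Calb1 and Calb2 did not pass. Many other genes differed here too: of 16047 genes 24.3% were called lower and 30.3% higher. The members' median log2 fold change was -1.07, against 0.03 over all tested genes.

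Compared between treatments within peri-infarct tissue, 6 of the 10 members were lower in libraries labelled HPBCD than in libraries labelled vehicle, namely Sst, Cort, Vip, Cck, Crh and Calb1. Of 16224 genes 9% were called lower and 12.4% higher. Groups did not overlap for Sst, Cort and Crh, and overlapped for Vip, Cck and Calb1. The share of all genes without overlap was not computed here either. The members' median was -0.65 on the log2 scale, against 0.01 over all tested genes. This comparison and that of regions in HPBCD share the 5 peri-infarct libraries labelled HPBCD, so they are not separate evidence.

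In contralateral tissue no member differed between treatments, where the share of the 15469 genes called in either direction was also 0% by edgeR. At an unadjusted p under 0.05 edgeR had 1224 genes (7.91%) and 2 members, Gad1 and Cort. DESeq2 and limma voom also called 0 members there. The difference between regions was itself compared between treatments by an interaction term over 20 libraries, which called 2 members, Gad1 and Crh, both with a larger regional difference in mice labelled HPBCD. Of 16758 genes 4.38% had an interaction called in the lower direction and 5.03% in the higher one. Among markers, 7 of 12 pan-neuronal and 4 of 8 cortical glutamatergic ones had a called interaction in the lower direction. In the higher direction were 4 of 5 fibroblast and meningeal and 3 of 6 ependymal and choroid plexus markers. Their part in the result was not tested. Scaled to the pan-neuronal genes, as described below, the interactions of Gad1 and Crh did not pass.

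**Figure D2:**
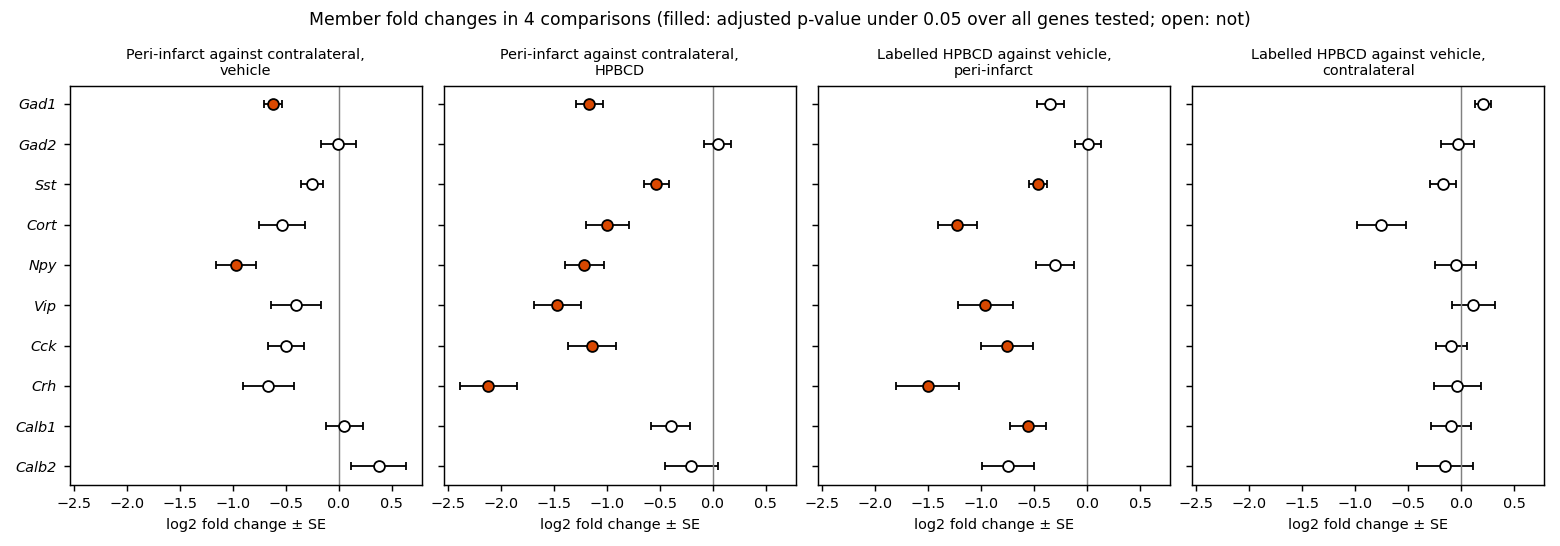
Log2 fold change of each member, with bars of 1 SE from edgeR's quasi-likelihood test (5 libraries a group), in 1 panel per comparison: the regions in vehicle, the regions in HPBCD, and labelled HPBCD against vehicle in peri-infarct and in contralateral tissue. Filled points passed an adjusted p of 0.05; they number 2, 7, 6 and 0 in that order, and all lie below 0.

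The 2 GABA-making enzymes differed from each other. Gad1 stood at 247, 216, 233, 232 and 193 CPM in vehicle peri-infarct replicates 1 to 5 and at 386, 349, 331, 317 and 350.2 CPM in the contralateral libraries of the same animals. Gad1 in mice labelled HPBCD stood at 195, 172, 161, 129 and 213 CPM in peri-infarct and 379, 401, 414, 445 and 373 CPM in contralateral libraries. Every peri-infarct library lay below every contralateral one in both treatments, and the highest peri-infarct value was that of vehicle replicate 1. The difference was 1.54-fold lower in vehicle (log2 fold change -0.62 ± 0.08 (SE), adjusted p = 0.00176) and 2.24-fold lower in HPBCD (log2 fold change -1.16 ± 0.12 (SE), adjusted p = 8.01e-06). The interaction for Gad1 passed the test (log2 fold change -0.56 ± 0.15 (SE), adjusted p = 0.0284). That call was lost in 4 of 20 fits that left out 1 library (vehicle peri-infarct 1, vehicle contralateral 3, HPBCD peri-infarct 3 and HPBCD contralateral 4), where the adjusted p rose to as much as 0.0621. Within peri-infarct tissue Gad1 did not pass between treatments (log2 fold change -0.35 ± 0.13 (SE), adjusted p = 0.0699), and neither did it in contralateral tissue (log2 fold change 0.21 ± 0.07 (SE), adjusted p = 0.555).

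Gad2 stood at 189.6, 165, 152, 181 and 129 CPM in vehicle peri-infarct and at 236, 138, 133, 177 and 139 CPM in vehicle contralateral libraries. Gad2 in mice labelled HPBCD stood at 185, 139, 160.5, 137 and 188 CPM in peri-infarct and 136, 171, 182, 184 and 136 CPM in contralateral libraries. The 4 groups overlapped, and the single highest library was vehicle contralateral replicate 1, the one with the high striatal markers. Gad2 did not pass between regions in HPBCD (log2 fold change 0.05 ± 0.13 (SE), adjusted p = 0.774) or between treatments in peri-infarct tissue (log2 fold change 0.01 ± 0.13 (SE), adjusted p = 0.969). In vehicle Gad2 had an adjusted p of 0.996, and without that library its log2 fold change was 0.18 with an adjusted p of 0.334. Within animals the peri-infarct level was 0.804 to 1.20 times the contralateral level in vehicle and 0.741 to 1.39 times in HPBCD, so animals went in both directions. For Gad1 the same ratios were 0.552 to 0.730 and 0.289 to 0.570, below 1 in all 10 animals.

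The ratio of Gad1 to Gad2 CPM within a library therefore separated the regions. Its median was 1.31 in vehicle peri-infarct and 2.49 in vehicle contralateral libraries, and 1.05 against 2.42 in HPBCD (n = 5 each). The SD was 0.121 and 0.441 in vehicle and 0.113 and 0.238 in HPBCD, in the same order. Ranges were 1.28 to 1.53 against 1.64 to 2.53 in vehicle and 0.942 to 1.23 against 2.27 to 2.79 in HPBCD, with no overlap in either. No test was run on ratios, which are not per length and serve only to compare libraries. The striatal markers moved with this contrast in HPBCD, where all 10 were called higher in peri-infarct tissue, and their part in the ratio was not tested. In vehicle, with the striatal level as a covariate, Gad1 was still lower (log2 fold change -0.72, adjusted p = 0.00298) and Gad2 was at -0.24 (adjusted p = 0.215). In HPBCD the striatal level separates the regions completely, so striatal content and region cannot be told apart there.

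Sst encodes somatostatin, the peptide of the class that targets dendrites. It stood at 305, 263, 249, 235 and 243 CPM in vehicle peri-infarct and 313, 290.0, 325, 256 and 369.8 CPM in vehicle contralateral libraries. Sst in mice labelled HPBCD stood at 203, 177, 192, 170.0 and 183 CPM in peri-infarct and 359, 252, 225, 282 and 266 CPM in contralateral libraries. The 5 peri-infarct libraries labelled HPBCD were the lowest of all 20, below every vehicle peri-infarct library, while the 2 vehicle regions overlapped. Sst was 1.45-fold lower in peri-infarct tissue in HPBCD (log2 fold change -0.53 ± 0.12 (SE), adjusted p = 0.00183) and did not pass in vehicle (log2 fold change -0.25 ± 0.10 (SE), adjusted p = 0.105), although it was lower in peri-infarct tissue in all 5 vehicle animals. Against vehicle peri-infarct libraries Sst was 1.38-fold lower in those labelled HPBCD (log2 fold change -0.46 ± 0.09 (SE), adjusted p = 0.0128), a call kept without each of the 10 libraries in turn. The regional difference in Sst did not pass as different between treatments (interaction -0.29 ± 0.16, adjusted p = 0.221).

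Cort encodes cortistatin, a relative of somatostatin that binds the same receptors. It stood at 10.6, 12, 6.13, 7.94 and 8.63 CPM in vehicle peri-infarct and 8.24, 15.5, 17.9, 11.8 and 12.9 CPM in vehicle contralateral libraries. Cort in mice labelled HPBCD stood at 4.80, 3.86, 3.26, 3.51 and 3.68 CPM in peri-infarct and 11.6, 5.51, 8.30, 5.85 and 8.11 CPM in contralateral libraries. The peri-infarct libraries labelled HPBCD lay in a narrow band below all other libraries. Cort was 1.99-fold lower in peri-infarct tissue in HPBCD (log2 fold change -0.99 ± 0.21 (SE), adjusted p = 0.0013) and 2.34-fold lower than in vehicle peri-infarct libraries (log2 fold change -1.22 ± 0.19 (SE), adjusted p = 0.0128). In vehicle it did not pass between regions (log2 fold change -0.54 ± 0.21 (SE), adjusted p = 0.0998); without contralateral replicate 1 it did (-0.65, adjusted p = 0.0360). In contralateral tissue the difference between treatments was -0.75 ± 0.23 (unadjusted p = 0.00565) and did not pass over all genes (adjusted p = 0.503).

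Npy encodes neuropeptide Y, made by part of the somatostatin class and by neurogliaform cells. It stood at 59.5, 60.1, 50.7, 40.9 and 41.5 CPM in vehicle peri-infarct and 98.0, 127, 111, 57.9 and 106 CPM in vehicle contralateral libraries. Npy in mice labelled HPBCD stood at 39.9, 25.7, 38.2, 45.4 and 52.8 CPM in peri-infarct and 125, 77.6, 87.7, 77.1 and 117 CPM in contralateral libraries. Npy was lower in peri-infarct tissue in all 10 animals, and the overlap in vehicle came from contralateral replicate 4. It was the member with the largest called regional difference in vehicle, 1.96-fold lower (log2 fold change -0.97 ± 0.19 (SE), adjusted p = 0.00595), and was 2.32-fold lower in HPBCD (log2 fold change -1.21 ± 0.18 (SE), adjusted p = 0.000122). Between treatments in peri-infarct tissue it did not pass (log2 fold change -0.30 ± 0.18 (SE), adjusted p = 0.229), and neither did its interaction (-0.25 ± 0.28, adjusted p = 0.592).

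Vip encodes vasoactive intestinal peptide, the marker of interneurons that mostly inhibit other interneurons. It stood at 52.5, 57.5, 27.7, 52.4 and 35.1 CPM in vehicle peri-infarct and 36.9, 79.4, 69.1, 69.4 and 44.7 CPM in vehicle contralateral libraries. Vip in mice labelled HPBCD stood at 30.2, 17.1, 25.0, 12.3 and 29.4 CPM in peri-infarct and 77.2, 50.4, 59.0, 56.0 and 83.2 CPM in contralateral libraries. The vehicle regions overlapped, with contralateral replicate 1 the lowest of its group, and the HPBCD regions did not. Vip was 2.77-fold lower in peri-infarct tissue in HPBCD (log2 fold change -1.47 ± 0.22 (SE), adjusted p = 0.000123) and did not pass in vehicle (log2 fold change -0.40 ± 0.24 (SE), adjusted p = 0.254). Compared with vehicle peri-infarct libraries, Vip was 1.95-fold lower in those labelled HPBCD (log2 fold change -0.96 ± 0.26 (SE), adjusted p = 0.0288). This call was lost without vehicle replicate 1, 2 or 4 or HPBCD replicate 3, with an adjusted p of up to 0.0682. The interaction was -1.08 ± 0.35 (SE, adjusted p = 0.0577) and passed in 3 of 8 alternatives: with animals as a block (-1.13, adjusted p = 0.0299), by DESeq2 (-1.08, adjusted p = 0.0243) and by limma voom (-0.90, adjusted p = 0.0387). It also passed in 2 of 20 fits without 1 library, peri-infarct replicate 3 of vehicle or 1 of HPBCD.

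Crh encodes corticotropin-releasing hormone, which in the cortex is made by a part of the Vip cells. It had the largest difference of the 10 members between regions in HPBCD and between treatments in peri-infarct tissue, at low counts (23 to 73 in the peri-infarct libraries labelled HPBCD and 123 to 231 in the vehicle contralateral ones). It stood at 6.75, 8.21, 3.32, 8.31 and 6.21 CPM in vehicle peri-infarct and 6.80, 12.9, 13.4, 9.72 and 9.67 CPM in vehicle contralateral libraries. Crh in mice labelled HPBCD stood at 3.05, 1.15, 2.74, 1.75 and 2.65 CPM in peri-infarct and 13.2, 7.90, 7.89, 7.77 and 14.4 CPM in contralateral libraries. All 5 peri-infarct values labelled HPBCD were below the lowest value of every other group. Crh was 4.35-fold lower in peri-infarct tissue in HPBCD (log2 fold change -2.12 ± 0.27 (SE), adjusted p = 2.88e-05) and 2.84-fold lower than in vehicle peri-infarct libraries (log2 fold change -1.50 ± 0.30 (SE), adjusted p = 0.0135). In vehicle it was lower in all 5 animals but did not pass (log2 fold change -0.66 ± 0.24 (SE), adjusted p = 0.0738), and without contralateral replicate 1 it passed (-0.77, adjusted p = 0.0424). Its interaction passed (log2 fold change -1.47 ± 0.39 (SE), adjusted p = 0.028), except when peri-infarct library 2 of vehicle or 4 of HPBCD was left out, where the adjusted p was up to 0.0574. With the striatal level as a covariate the interaction of Crh no longer passed (-1.26, adjusted p = 0.0729), while that of Gad1 did (-0.64, adjusted p = 0.0378).

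Cck encodes cholecystokinin, made by a class of basket cells and, in the cortex, also by pyramidal neurons. It stood at 307, 327, 170.4, 250.2 and 248 CPM in vehicle peri-infarct and 275, 437, 428, 324 and 383 CPM in vehicle contralateral libraries. Cck in mice labelled HPBCD stood at 178, 219, 120.2, 84.6 and 159 CPM in peri-infarct and 464, 296, 298, 308 and 375 CPM in contralateral libraries. Regions overlapped in vehicle and not in HPBCD. Cck was 2.21-fold lower in peri-infarct tissue in HPBCD (log2 fold change -1.14 ± 0.23 (SE), adjusted p = 0.000912). In vehicle it did not pass (log2 fold change -0.49 ± 0.17 (SE), adjusted p = 0.0598), and without contralateral replicate 1 it did (-0.57, adjusted p = 0.0352). Cck was also 1.69-fold lower in peri-infarct libraries labelled HPBCD than in vehicle ones (log2 fold change -0.76 ± 0.24 (SE), adjusted p = 0.0459), but it passed in only 2 of the 10 fits that left out 1 library (adjusted p up to 0.111). The 8 glutamatergic markers moved with it: 7 were called lower in HPBCD peri-infarct tissue and 4 lower between treatments there, and their part in the Cck difference was not tested.

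Calb1 and Calb2 encode calbindin and calretinin, calcium buffers of the EF-hand family. Calb1 ranged over 93.0 to 134 CPM in vehicle peri-infarct, 75.8 to 163 in vehicle contralateral, 52.2 to 108 in HPBCD peri-infarct libraries and 84.4 to 137 on the contralateral side in HPBCD. It did not pass between regions in vehicle (log2 fold change 0.05 ± 0.17 (SE), adjusted p = 0.859) or HPBCD (log2 fold change -0.40 ± 0.18 (SE), adjusted p = 0.0872), though with animals as a block the HPBCD difference passed (-0.40, adjusted p = 0.0220). It was 1.47-fold lower in peri-infarct libraries labelled HPBCD (log2 fold change -0.56 ± 0.17 (SE), adjusted p = 0.0383), a call kept in 3 of 10 fits without 1 library (adjusted p up to 0.0829). Calb2 ranged over 8.59 to 13.7, 4.42 to 13.0, 4.31 to 10.9 and 6.01 to 11.2 CPM in the same order of groups. All of its groups overlapped, and on the TMM scale no comparison of it passed by edgeR in all libraries. Its difference between treatments in peri-infarct tissue lay at the threshold (log2 fold change -0.74 ± 0.24 (SE), adjusted p = 0.0501) and passed in 4 of 9 alternatives and in 2 of 10 fits without 1 library. Within animals, Calb2 was higher in peri-infarct tissue in 4 of the 5 vehicle animals and lower in all 5 labelled HPBCD.

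In the treatment comparison within peri-infarct tissue, other cell types moved as well. The 5 fibroblast and meningeal markers summed to 45.4 to 252 CPM in libraries labelled vehicle and 289 to 922 CPM in those labelled HPBCD, and all 5 were called higher. The 6 ependymal and choroid plexus markers summed to 20.8 to 103 and 94.2 to 723 CPM, and 3 were called higher. The 12 pan-neuronal genes summed to 7631 to 10473 and 4085 to 7526 CPM, and 10 were called lower. Microglial markers summed to 395 to 955 and 609.7 to 1036 CPM, with 0 of 6 called between treatments by edgeR and 2 at an unadjusted p under 0.05. Astrocyte markers summed to 4574 to 8761 and 7109 to 9708 CPM, and oligodendrocyte markers to 2819 to 7189 and 6024 to 8540.2 CPM, with 1 of 6 called higher in each list. Of these listed genes, at most 1 was at 0 in a peri-infarct library, from the ependymal list. With the striatal level as a covariate, 3 of the 6 members called there were still called: Sst (-0.47, adjusted p = 0.0227), Cort (-1.16, adjusted p = 0.0227) and Crh (-1.52, adjusted p = 0.0260). Vip (-0.99, adjusted p = 0.0504), Cck (-0.62, adjusted p = 0.0858) and Calb1 (-0.59, adjusted p = 0.0509) no longer passed. The part of the other lists in the members' differences was not tested.

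**Figure D3:**
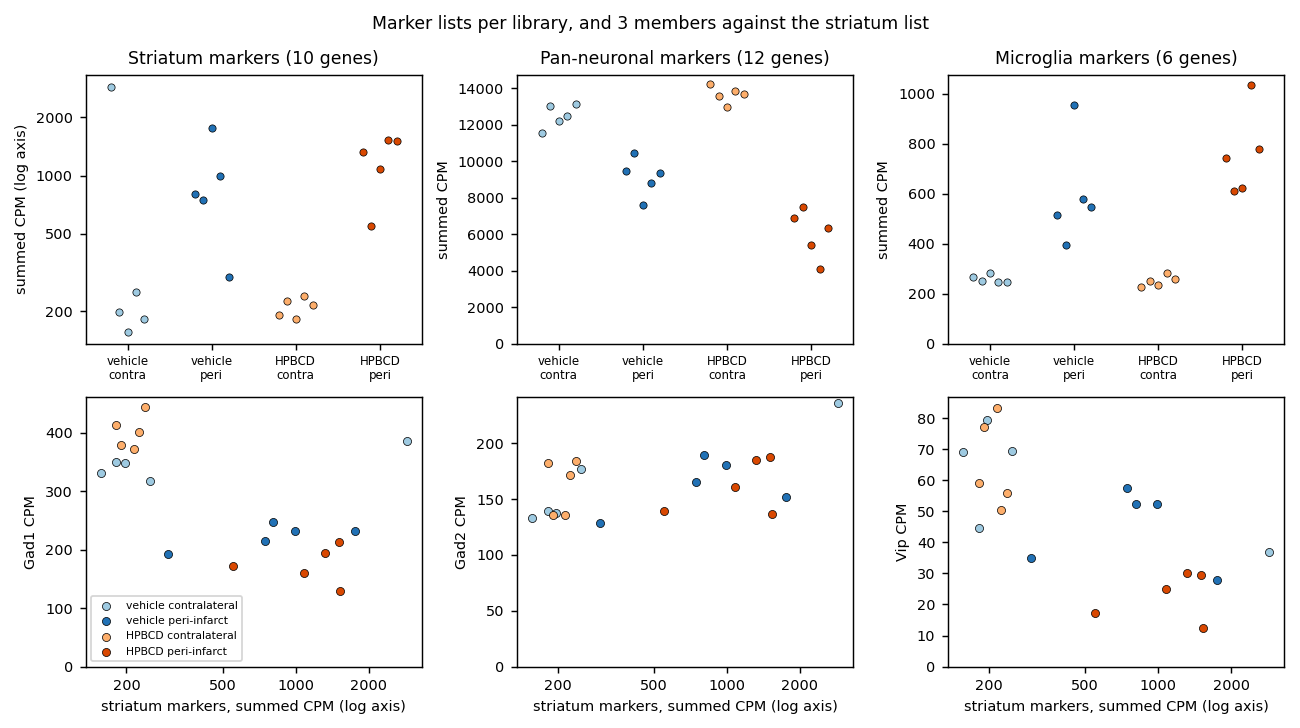
The upper panels plot the summed CPM of the striatal (log axis), pan-neuronal and microglial markers in every library, and the lower panels plot Gad1, Gad2 and Vip CPM against the striatal markers (log axis), with 5 libraries in each of the 4 groups. Striatal markers in vehicle contralateral replicate 1 lie at 2871 CPM, far above the other 4 libraries of that group, and pan-neuronal markers in peri-infarct libraries labelled HPBCD lie at 4085 to 7526 CPM, below all others.

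The members were therefore also measured against neuronal RNA, by scaling each library to the summed counts of the 12 pan-neuronal genes. Since many of those genes fell in peri-infarct tissue, the scale moved the median of all genes to 0.46 in region in vehicle, 1.21 in region in HPBCD, 0.63 in treatment in peri-infarct tissue and 0.76 in the interaction, and values below are to be read against these medians. Abundant genes weigh most in this sum. On this scale the 12 genes themselves had a median of 0.19 between regions in vehicle and 0.26 in HPBCD. Of them 6 were called higher and 1 lower in each. Between treatments in peri-infarct tissue their median was -0.02. Relative to neurons below means relative to this sum, so a regional value near 0 is not parity with the typical neuronal gene. Relative to neurons, Npy was lower in vehicle peri-infarct tissue (log2 fold change -0.53 ± 0.18 (SE), adjusted p = 0.0247), where 1.12% of genes were called lower. That call was kept in 6 of 10 fits without 1 library. Calb1 (0.51 ± 0.20, adjusted p = 0.0405) and Calb2 (0.82 ± 0.25, adjusted p = 0.0146) were higher, along with 62% of all genes. The Calb1 call was kept in only 4 of 10 fits without 1 library and was lost with scaling to glutamatergic markers (0.33, adjusted p = 0.155). Gad1 was at -0.17 (adjusted p = 0.234) relative to pan-neuronal genes and was called lower with scaling to glutamatergic markers (-0.36, adjusted p = 0.0481), where 1.42% of genes were called lower and the median of all genes was 0.29. With animals as a block Gad2 was also called higher (0.47, adjusted p = 0.0101).

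In HPBCD, Crh was lower relative to neurons in peri-infarct tissue (log2 fold change -0.94 ± 0.31 (SE), adjusted p = 0.01), where 1.08% of genes were called lower and 89.5% higher. Gad1 was at -0.01 ± 0.13 (SE, adjusted p = 0.913), and Cck (-0.05), Npy (0.01), Cort (0.17) and Vip (-0.33) did not pass on this scale either. Gad2 (1.22 ± 0.17), Sst (0.66 ± 0.16), Calb1 (0.74 ± 0.16) and Calb2 (0.94 ± 0.26) were called higher on this scale, with adjusted p from 1.21e-05 for Gad2 to 0.00325 for Calb2, and of these only Gad2 reached the median of all genes. With animals as a block Vip was called lower (-0.36, adjusted p = 0.0469).

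Between treatments in peri-infarct tissue, Cort (log2 fold change -0.60 ± 0.21 (SE), adjusted p = 0.0253) and Crh (log2 fold change -0.87 ± 0.32 (SE), adjusted p = 0.0308) were lower relative to neurons in libraries labelled HPBCD, where 0.166% of genes were called lower and 64.8% higher. Each of these calls was kept in 6 of 10 fits without 1 library, and neither with scaling to cortical glutamatergic markers instead, under which the single call was not in the lower direction. Gad2 was higher (log2 fold change 0.62 ± 0.17 (SE), adjusted p = 0.0119), close to the median of all genes. Sst (0.16), Vip (-0.36) and Cck (-0.20) did not pass on this scale, and neither did Calb1 (adjusted p = 0.992). In the interaction Gad2 (0.78 ± 0.26, adjusted p = 0.015) and Sst (0.46 ± 0.20, adjusted p = 0.0471) were called higher along with 66.3% of genes, Sst in only 8 of 20 fits without 1 library. Gad1 (0.15 ± 0.17, adjusted p = 0.428) and Crh (-0.70 ± 0.39, adjusted p = 0.111), whose interactions passed on the TMM scale, did not pass on this one. The sign of Gad1 changed.

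Scaling to the geometric mean of Gad1 and Gad2 measured the other 8 members against the 2 enzymes. On this scale the medians of all genes were 0.31, 0.60, 0.20 and 0.29 in region in vehicle, region in HPBCD, treatment in peri-infarct tissue and the interaction. Npy was lower in vehicle peri-infarct tissue (log2 fold change -0.70 ± 0.20 (SE), adjusted p = 0.0164), where 0.905% of genes were called lower. This call was lost with Gad1 alone (-0.35, adjusted p = 0.0753) and with Slc32a1, the vesicular GABA transporter gene, as the scale (-0.66, adjusted p = 0.138). Calb1 and Calb2 did not pass there (0.34 ± 0.17 and 0.64 ± 0.27), but were called higher with animals as a block (0.38, adjusted p = 0.0427, and 0.73, adjusted p = 0.0142), with Gad1 alone (0.65, adjusted p = 0.00413, and 0.97, adjusted p = 0.00597, where the median of all genes was 0.64) and without vehicle contralateral replicate 4. In HPBCD Npy (-0.68 ± 0.22, adjusted p = 0.0102), Vip (-0.98 ± 0.21, adjusted p = 0.000472), Cck (-0.63 ± 0.22, adjusted p = 0.0179) and Crh (-1.63 ± 0.29, adjusted p = 8.94e-05) were lower, where 3.96% of genes were called lower. Scaled to Gad1 alone, which moved the median of all genes to 1.22, Crh was still lower (-0.98, adjusted p = 0.00456), while Npy (-0.04, adjusted p = 0.878), Vip (-0.35, adjusted p = 0.108) and Cck (-0.01, adjusted p = 0.948) were not called. Cck also missed the threshold with Slc32a1 as the scale (-0.67, adjusted p = 0.0537). Sst was at 0.02 ± 0.17 (SE, adjusted p = 0.927) and rests on the choice of enzyme too: scaled to Gad1 alone it was called higher (0.65, adjusted p = 0.0013) and to Gad2 alone lower (-0.61, adjusted p = 0.0129).

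Between treatments in peri-infarct tissue, Cort (-1.05 ± 0.22, adjusted p = 0.00656), Vip (-0.82 ± 0.20, adjusted p = 0.0151) and Crh (-1.36 ± 0.28, adjusted p = 0.00619) were lower relative to the enzymes in libraries labelled HPBCD, where 1.3% of genes were called lower. No interaction among the 8 passed on this scale by edgeR, where 8.4% of genes did in either direction; 2 had an unadjusted p under 0.05. They were Crh (-1.21 ± 0.43, adjusted p = 0.073) and Vip (-0.82 ± 0.35, adjusted p = 0.14).

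**Figure D4:**
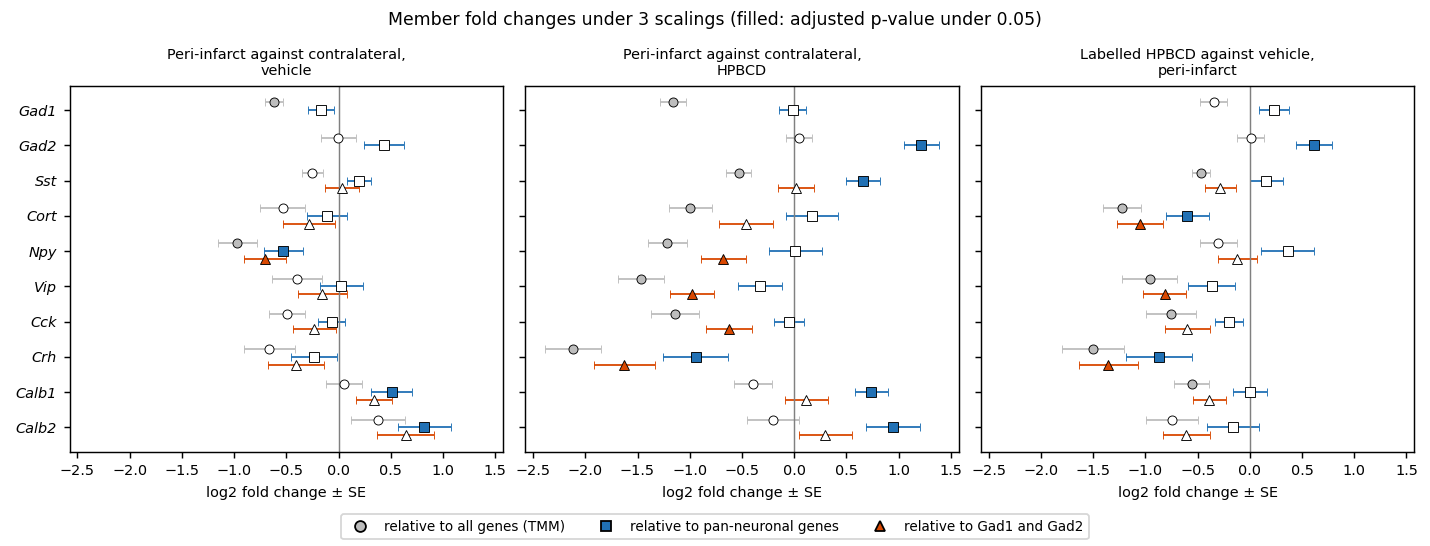
Log2 fold change of each member (bars of 1 SE) in 3 comparisons, on 3 scales: all genes (TMM, circles), relative to the 12 pan-neuronal genes (squares) and relative to Gad1 and Gad2 (triangles, not drawn for the enzymes themselves). Filled points passed an adjusted p of 0.05; relative to pan-neuronal genes Gad1 lies at -0.01 between regions in HPBCD while Gad2 lies at 1.22.

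Ratios between peptides within a library describe how the classes stood to each other, with no test. Sst to Vip was 6.15 ± 1.87 in vehicle peri-infarct and 5.75 ± 2.42 in vehicle contralateral libraries, and 8.96 ± 3.15 against 4.34 ± 0.805 in HPBCD (SD, n = 5). The HPBCD regions did not overlap (6.23 to 13.8 against 3.20 to 5.03). Npy to Sst was 0.194 ± 0.0235 against 0.321 ± 0.0780 in vehicle and 0.219 ± 0.0578 against 0.351 ± 0.0655 in HPBCD, so that Npy was on average the lower relative to Sst on the infarct side in both. The regions overlapped in vehicle (0.171 to 0.228 against 0.226 to 0.438) and in HPBCD (0.145 to 0.288 against 0.273 to 0.439). Cort to Sst was 0.0349 ± 0.00749 against 0.0432 ± 0.0124 in vehicle and 0.0206 ± 0.00248 against 0.0284 ± 0.00695 in HPBCD. Calb2 to Vip was 0.254 ± 0.0663 against 0.140 ± 0.0294 in vehicle and 0.286 ± 0.0656 against 0.117 ± 0.0185 in HPBCD, higher on the infarct side on average. Within the HPBCD group that ratio did not overlap between regions (0.214 to 0.360 against 0.0927 to 0.145). Crh to Vip was 0.145 ± 0.0231 against 0.179 ± 0.0295 in vehicle and 0.102 ± 0.0277 against 0.155 ± 0.0182 in HPBCD, and the regions overlapped in both.

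**Figure D5:**
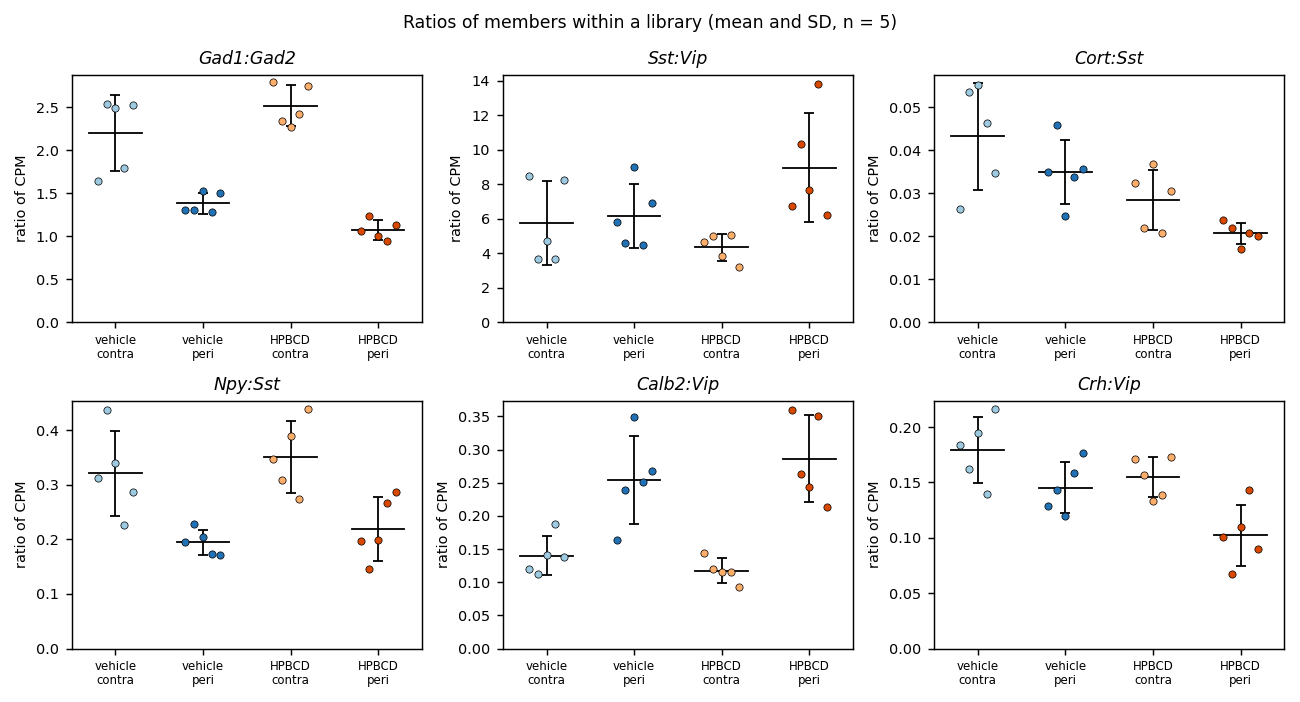
Ratio of CPM between 2 members within each library, on linear axes from 0, 1 panel per ratio. Points are libraries, long lines are group means and error bars are 1 SD (n = 5 in each of the 4 groups). Gad1 to Gad2 lies at 1.28 to 1.53 in vehicle peri-infarct against 1.64 to 2.53 in vehicle contralateral libraries, and at 0.942 to 1.23 against 2.27 to 2.79 in HPBCD.

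The remaining machinery of these cells was described by lists of named genes, first on the TMM scale. Counts of called genes are to be read against the shares of all genes called. These were 10.5% higher and 9.7% lower between regions in vehicle, and 30.3% and 24.3% in HPBCD. Between treatments in peri-infarct tissue they were 12.4% and 9%. Of 5 genes that move or break down GABA, 0 passed between regions in vehicle by edgeR (0 at an unadjusted p under 0.05), and in HPBCD 3 were lower and 1 higher in peri-infarct tissue. Slc6a11, the astrocytic GABA transporter GAT-3, was at -0.55 ± 0.12 (log2 fold change ± SE) and Aldh5a1, the enzyme of the last step of GABA breakdown, at -0.40 ± 0.08. Slc6a13, a transporter of the meninges, was higher at 1.98 ± 0.31. Slc6a11 was also lower between treatments in peri-infarct tissue (-0.43 ± 0.11) and had a called interaction. Among 15 transcription factors of interneurons, 1 was higher and 1 lower between regions in vehicle, Sox6 (0.50 ± 0.12) and Dlx1 (-0.46 ± 0.13). In HPBCD 5 were higher and 7 lower, including Satb1 (-1.65 ± 0.18), a regulator of the somatostatin class, and Dlx1 (-1.18 ± 0.19). Sp9, which is also a factor of striatal projection neurons, was higher (1.09 ± 0.14).

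Other markers of the same classes did not all move with the members. Over all genes, 10.5% were called higher and 9.7% lower in vehicle, and 30.3% and 24.3% in HPBCD. Between treatments in peri-infarct tissue the shares were 12.4% and 9%. Of 7 further somatostatin class genes, 3 were higher and 0 lower in vehicle peri-infarct tissue. They were Hpse (1.67 ± 0.46), Nos1 (1.00 ± 0.19), the nitric oxide synthase of long-range somatostatin cells, and Grin3a (0.72 ± 0.21). Hpse is no marker of this class alone, since the publication of this experiment lists it with angiogenesis genes. In HPBCD 3 were higher and 2 lower, including Crhbp (-0.98 ± 0.25), which encodes the binding protein of the Crh peptide, and between treatments in peri-infarct tissue 0 were higher and 1 lower, Elfn1 (-0.67 ± 0.14). Of 7 genes of the Vip and Cck classes, 4 were higher and 0 lower in HPBCD peri-infarct tissue, among them Chat (3.07 ± 0.39), the acetylcholine-making enzyme that striatal interneurons also express, and Sncg (2.07 ± 0.21). In vehicle 1 of these 7 was higher and 0 lower. Between treatments in peri-infarct tissue 2 were higher, Crispld2 and Sncg, and 1 was lower, Tac2. Of 8 parvalbumin class genes, 5 were lower and 0 higher in vehicle, and 6 were lower and 2 higher in HPBCD. Pvalb was at -2.26 ± 0.34 and -2.99 ± 0.25, and Syt2, the synaptotagmin of its terminals, at -2.07 ± 0.25 and -2.51 ± 0.15, larger changes than those of any member in vehicle. Between treatments in peri-infarct tissue 0 of these 8 were lower and 1 was higher, Pthlh. Of 6 Lamp5 class genes, 1 was lower in vehicle, and 2 were lower and 1 higher in HPBCD. Between treatments in peri-infarct tissue 0 of these 6 were called by edgeR, and 3 had an unadjusted p under 0.05. Lamp5 itself was lower in vehicle (-1.38 ± 0.22) and in HPBCD (-2.24 ± 0.26).

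On the same scale, receptors for the members' peptides passed in both directions between regions and in the lower direction between treatments. Of 13 tested, 2 were higher and 3 lower between regions in vehicle, 4 and 7 in HPBCD, and 0 and 5 between treatments in peri-infarct tissue. The shares of all genes were 10.5% and 9.7%, 30.3% and 24.3%, and 12.4% and 9% in the same order. Several counts in this paragraph lie near these shares. Crhr1, the main receptor for the Crh peptide, was lower in vehicle (-0.74 ± 0.17) and HPBCD (-1.51 ± 0.18) peri-infarct tissue. Npy2r, a presynaptic neuropeptide Y receptor, was higher in both (1.76 ± 0.39 and 2.91 ± 0.61). Sstr1 (-0.87 ± 0.26) and Sstr2 (-1.16 ± 0.37), receptors of somatostatin and cortistatin, and Cckbr (-1.10 ± 0.27), the brain receptor for cholecystokinin, were lower in peri-infarct libraries labelled HPBCD. Of 10 genes that process peptides and pack dense-core vesicles, 5 were lower in vehicle, 7 in HPBCD and 4 between treatments, each with at most 1 higher. They included Scg5 (-0.67 ± 0.11 in vehicle), the helper of the convertase PC2, and Pcsk2 (-0.72 ± 0.16) and Pcsk1 (-0.97 ± 0.29), the convertases themselves, between treatments. Of 9 other neuropeptide precursors, 3 were lower in HPBCD peri-infarct tissue, among them Cartpt (-2.36 ± 0.37), and 3 were higher, among them Penk (3.20 ± 0.26) and Tac1 (2.42 ± 0.29), which striatal neurons express strongly. Of 12 other EF-hand calcium-binding protein genes, 4 were lower and 2 higher in vehicle, 7 lower and 2 higher in HPBCD, and 7 lower and 0 higher between treatments in peri-infarct tissue.

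These counts changed with the scale. Relative to pan-neuronal genes, where most genes were called higher in every one of these comparisons (62% between regions in vehicle, 89.5% in HPBCD and 64.8% between treatments), the peptide receptors had 5 higher and 0 lower between regions in vehicle, 6 and 0 in HPBCD, and 4 and 0 between treatments. Npy2r was among the 4 (1.24 ± 0.51), while Sstr1 (-0.29 ± 0.24), Sstr2 (-0.49 ± 0.37) and Cckbr (-0.51 ± 0.25) did not pass there. Of the EF-hand genes 6 were higher and 1 lower in vehicle, 9 and 2 in HPBCD, and 1 and 1 between treatments. The peptide-processing genes had 4 higher and 1 lower in vehicle, 4 and 0 in HPBCD and 3 and 0 between treatments, and Pcsk2 (-0.14 ± 0.12) and Pcsk1 (-0.43 ± 0.22) did not pass. The transcription factors had 6 and 0, 10 and 1, and 8 and 0 in the same order, and the GABA transport and breakdown genes 3 and 0, 5 and 0, and 3 and 0. The somatostatin class genes had 4 and 0, 6 and 0, and 2 and 0. The Vip and Cck class genes had 3 and 0, 5 and 0, and 2 and 0. The Lamp5 class genes had 2 and 1, 4 and 1, and 2 and 0, and the parvalbumin class genes 0 and 4, 2 and 4, and 3 and 0. The direction of Slc6a11 (0.59 ± 0.13) and Aldh5a1 (0.77 ± 0.14) between regions in HPBCD turned with the scale, and both were called higher there. Both lay below the median of all genes on that scale, 1.21, so these calls are no rise particular to the 2 genes. Genes still called lower relative to neurons in peri-infarct tissue in both treatments included Pvalb (-1.84 ± 0.29 in vehicle and -1.82 ± 0.25 in HPBCD), Syt2 (-1.63 ± 0.25 and -1.33 ± 0.19) and Lamp5 (-0.96 ± 0.18 and -1.06 ± 0.26). Relative to Gad1 and Gad2, between treatments, the receptors had 0 higher and 2 lower, Cckbr (adjusted p = 0.011) and Crhr1 (-0.66 ± 0.19, adjusted p = 0.0285), the peptide-processing genes 0 and 3, and the EF-hand genes 0 and 1.

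Over the 20 libraries, the genes whose log2 CPM ran most nearly parallel to that of a member were found among 11761 genes at 5 CPM or more on average. For Gad1 they were Atp2b2 (Pearson's r = 0.978), Atpaf1 (0.978) and Scrt1 (0.971). For Sst they were Praf2 (0.951), Rtl8b (0.928) and Cox5a (0.928), and for Vip they included Dlk2 (0.956) and Crhr1 (0.951). These points share group, region and tissue makeup. With group means removed, r was 0.737 for Gad1 with Atp2b2, 0.829 for Sst with Praf2 and 0.904 for Vip with Crhr1. Gad1 and Gad2 ran in parallel at r = 0.192 over the 20 libraries and at 0.665 with group means removed.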

How the data were processed

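Bulk RNA was sequenced from 20 libraries. Per the labels and the submitters' processing notes, the authors used bcl2fastq 2.19, Trimmomatic 0.32, STAR 2.5.2b (GRCm38) and HTSeq, and deposited raw counts per gene; lines that name no gene (no feature 4.39% to 9.503%, ambiguous 3.941% to 8.03% and not uniquely aligned 16.581% to 24.298% of all counts) were left out. No tables were identical. The p-values rest on the spread between the 5 libraries of a group, each from another animal. The main tests held no animal term, so both libraries of an animal entered the regional and interaction tests as if separate. The counts were tested with edgeR 4.0.16 in R 4.3.3 (TMM, filterByExpr, quasi-likelihood F test, Benjamini-Hochberg adjustment over all tested genes, threshold 0.05), each comparison on its own libraries and the interaction on all 20. The fits were tested on simulated data. CPM uses TMM-scaled totals and log2 CPM a prior count of 2. Relative scales replace TMM factors by summed pan-neuronal counts or the geometric mean of Gad1 and Gad2. Genes named besides the members are at most 3 per list and comparison, those called with the largest fold change at a mean of 1 CPM or more, and the 3 genes most like Gad1, Sst and Vip; some genes are not reported here. DESeq2 1.42.0 and limma 3.58.1 were alternatives. Replicate numbers pair regions within a treatment, since deposited names share an animal identifier; over 10 pairs the correlation of deviations averaged 0.114, and 6 exceeded 0.1. Across treatments they share only a number. Members and lists were chosen with earlier results of these data known. Exon lengths and coordinates came from GENCODE M21, which matched 45229 of 46078 genes (98.16%).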

Additional observations from a re-analysis of the deposited data

Results flagged for a closer look

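In 148 groups of 5 libraries, 11 values lay far from the other 4 of their group (Dixon's test at 95%, which chance passes in about 1 in 20 groups). Among the members this was Calb1 in vehicle peri-infarct replicate 5, at 93.0 CPM, the lowest of its group. Vehicle contralateral replicate 1 accounted for 4 of the 11. Its ratio of Calb1 to Calb2 was 26.5, its Vip and Cck class genes summed to 267 CPM, its other neuropeptide precursors to 1408 CPM and its striatal markers to 2871 CPM. Hippocampal markers stood apart in vehicle peri-infarct replicate 1 (119 CPM) and HPBCD peri-infarct replicate 2 (215 CPM). Fibroblast and meningeal markers stood apart in vehicle peri-infarct replicate 4 (252 CPM) and HPBCD contralateral replicate 3 (79.4 CPM). Ependymal and choroid plexus markers stood apart in HPBCD replicate 3 on both sides, at 723 CPM in peri-infarct and 620.0 CPM in contralateral tissue.

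The regional difference differed between treatments by the interaction term for 15 results. For the members these were Gad1 (-0.56 on the log2 scale) and Crh (-1.47), and relative to pan-neuronal genes Gad2 (0.78) and Sst (0.46), where the median of all genes was 0.76 and 66.3% of genes were called higher. Sst was kept in 8 of 20 fits without 1 library. Gad1 (0.15, adjusted p = 0.428) and Crh (-0.70, adjusted p = 0.111) did not pass by edgeR relative to pan-neuronal genes. For the genes of the lists, on the TMM scale, the results were Slc6a11 (-0.51), Satb1 (-1.17), Lhx6 (-0.56), Elfn1 (-0.78), Sncg (1.53), Crispld2 (1.28), Kcnc1 (-0.88), Cckbr (-1.07), Vipr1 (-0.70), Pcsk2 (-0.71) and Chga (-0.62). Among the 11 list genes the GABA transporter Slc6a11, the factors Satb1 and Lhx6 and the peptide-processing genes Pcsk2 and Chga all had the larger fall in mice labelled HPBCD, while Sncg and Crispld2 had the larger rise.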

How the results depend on the processing

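The number of members called between regions in vehicle was 2, and was 4 by DESeq2, 6 by limma voom with sample weights and 2 to 5 without 1 library (5 without vehicle contralateral replicate 1); over all genes the counts were 3195, 3996 and 5065. In HPBCD it was 7, 7 to 8 without 1 library and 0 with the striatal covariate, under which Gad1, Npy, Vip and Crh were at -1.20, -2.12, -1.42 and -2.66 with larger errors, Cck was at 0.54, and 302 genes passed against 8764. Between treatments in peri-infarct tissue it was 6, 8 by DESeq2, 7 by voom, 8 with all 4 groups in 1 fit, 3 with that covariate and 3 to 6 without 1 library (3 without vehicle replicate 1, 2 or 4 or HPBCD replicate 3); voom called 6012 genes against 3471. Where no count over all genes stands beside a member count, here or below, that count describes the fit. It is no result about the members. For the interaction it was 2, 3 by DESeq2, voom or the replicate block (Vip added), 1 with the covariate and 1 to 3 without 1 library; 1577 genes passed, 2514 by DESeq2, 4110 by voom and 520 with the covariate. In contralateral tissue it stayed at 0 under every alternative. Relative to pan-neuronal genes the counts without 1 library were 1 to 4 in region in vehicle (3 in all libraries), 1 to 4 in treatment in peri-infarct tissue (3) and 1 to 3 in the interaction (2), and scaling to glutamatergic markers gave 1 in each of the last 2. Relative to Gad1 and Gad2 the count in vehicle was 1, 0 with Slc32a1, 3 with Gad1 alone (Npy not among them), 3 with the replicate block and 0 to 3 without 1 library. In HPBCD it was 4, 3 with Slc32a1, 4 with Gad1 alone (of the original 4 only Crh), 6 with Gad2 alone and 3 to 4 without 1 library, in treatment in peri-infarct tissue 3 and 3 to 4, and in the interaction 0 and 0 to 1 (1 without vehicle peri-infarct replicate 3). Sst in region in HPBCD was at -0.61 from Gad2 alone. The scales from Gad1 alone and from Gad2 alone were both chosen after seeing the data. With the replicate block, Cck relative to the enzymes also passed between treatments (-0.62, adjusted p = 0.0231), where numbers do not pair animals; beside the values given with the results, the block changed no other call of a member. Of 1040 values on the TMM scale and 1108 on the relative scales, 974 and 1041 stayed on their side of the threshold, among them 51 and 77 whose sign changed with neither value called. The causes of these shifts were not tested. Crh, Cort and Calb2 had the lowest counts.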
